A study of Mus musculus with 9 samples.

Results

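Collagen chain genes encode the polypeptides that assemble by threes into collagen, the main structural protein of the extracellular matrix. They were taken as every gene of the deposited expression table whose symbol is Col, a number, the letter a and a number. This rule found 33 of the 13179 genes in the table, and all 33 passed the low-value filter described with the tests. By the textbook classes, 10 of them encode fibrillar chains, 7 encode basement membrane chains and 16 encode other chains. Of the mouse chains of those classes, Col2a1, Col4a6, Col6a4, Col6a5, Col9a2, Col9a3, Col10a1, Col13a1, Col17a1, Col19a1 and Col25a1 were not analysed here.

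The study measured polyadenylated RNA of gastrocnemius, a calf muscle, from mice that had eaten a high-fat diet for 6 weeks. It held 9 libraries in 3 groups of 3, and compared each knockout with the control and both knockouts with each other. The p38alphaMCK-KO group (p38α KO below) lacks the stress kinase p38α, encoded by Mapk14, in muscle. The p38alpha/gammaMCK-KO group (p38α/γ KO) lacks p38α and p38γ, which Mapk12 encodes. The control group carries no knockout according to the labels, which do not give its alleles, nor the age or sex of any group. MCK is the usual name of the muscle creatine kinase promoter, used to drive Cre in muscle fibres, so other cells of the muscle keep the gene. Nothing in the labels states that the 3 libraries of a group are 3 animals. The p-values below therefore refer to the spread of these libraries, which may be technical.

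Collagen chains wind into a triple helix through repeats of glycine followed by any pair of residues. Fibrillar chains carry a long unbroken helix and pack into the fibres of tendon and of the sheaths around muscle. Type IV chains have interruptions in the repeat and form the sheet-like network of basement membranes that wraps muscle fibres and capillaries. Fibroblasts, fibro-adipogenic progenitors and tendon cells make most interstitial collagen in muscle, and endothelial cells and fibres add to the basement membrane. In whole muscle, fewer cells of a type and less RNA per cell cannot be told apart.

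The repeat can be read from the coding sequence of each gene's GENCODE M21 principal transcript, where a run was counted from 5 glycine triplets upward. The longest unbroken run held 216 to 344 triplets in the 10 fibrillar genes, with a median of 338. It held 30 to 66 triplets in the 7 basement membrane genes (median 40) and 23 to 113 in the 16 other genes (median 48.5). Col1a1 and Col3a1 had runs of 338 and 344 triplets, and Col27a1 and Col24a1, the shortest of the fibrillar class, had 217 and 216. The ranges of the fibrillar genes and of the other 2 classes did not overlap. A stretch of 24 codons is shown from the most regular kind and from the interrupted kind, with glycine codons in capitals. The Col1a1 stretch covers codons 258 to 281 and keeps the repeat throughout. The Col4a1 stretch covers codons 215 to 238, and 2 codons stand between its runs.
Col1a1: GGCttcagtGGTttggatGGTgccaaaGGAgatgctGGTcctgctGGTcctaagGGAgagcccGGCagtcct
Col4a1: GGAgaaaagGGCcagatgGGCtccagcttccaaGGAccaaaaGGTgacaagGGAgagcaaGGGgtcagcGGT

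RefSeq promoter windows of build GRCm38.p6, which lie mostly upstream of the start, were matched for 26 of the 33 genes, with 29 windows in all. They were searched on both strands for CCAAT, for the TATA-like letters TATAAA, for the GC box GGGCGG and for the AP-1 letters TGANTCA. The GC box stood in 18 of the 29 windows (62.1%), against 35.6% of all 32817 windows in the table. CCAAT stood in 10 (34.5%, against 37.4% of all windows), TATAAA in 2 (6.9%, against 13.6%) and TGANTCA in 1 (3.45%, against 7.81%). A match is a description of the letters and not a binding site. The windows of 4 genes are shown: Col8a1, which had the largest change of the set on the log2(value + 1) scale, Col1a2 and Col3a1, the most abundant fibrillar chains, and Col4a1, the most abundant basement membrane chain. Capitals mark matches to the first 3 of these motifs on either strand, and no 2 matches overlap in these windows.
Col8a1 chr16:57754688-57754987, minus strand: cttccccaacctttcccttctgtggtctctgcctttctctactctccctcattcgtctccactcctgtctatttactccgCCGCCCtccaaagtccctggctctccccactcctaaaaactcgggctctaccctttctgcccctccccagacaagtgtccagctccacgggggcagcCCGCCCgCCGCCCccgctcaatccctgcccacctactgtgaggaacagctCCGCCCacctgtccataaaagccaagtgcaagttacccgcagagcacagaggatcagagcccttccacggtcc
Col1a2 chr6:4505368-4505667, plus strand: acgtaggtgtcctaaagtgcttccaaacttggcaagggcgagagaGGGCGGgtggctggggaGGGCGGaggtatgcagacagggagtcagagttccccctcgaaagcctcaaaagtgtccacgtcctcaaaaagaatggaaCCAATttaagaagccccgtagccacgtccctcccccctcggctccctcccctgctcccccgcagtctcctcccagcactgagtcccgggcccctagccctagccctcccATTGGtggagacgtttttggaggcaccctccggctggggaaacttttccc
Col3a1 chr1:45311288-45311587, plus strand: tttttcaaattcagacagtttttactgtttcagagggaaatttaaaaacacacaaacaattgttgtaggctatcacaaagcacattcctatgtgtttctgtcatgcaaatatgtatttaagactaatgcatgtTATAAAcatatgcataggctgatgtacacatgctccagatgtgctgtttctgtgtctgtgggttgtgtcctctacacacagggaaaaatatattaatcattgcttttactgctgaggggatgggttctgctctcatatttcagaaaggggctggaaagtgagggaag
Col4a1 chr8:11312777-11313076, minus strand: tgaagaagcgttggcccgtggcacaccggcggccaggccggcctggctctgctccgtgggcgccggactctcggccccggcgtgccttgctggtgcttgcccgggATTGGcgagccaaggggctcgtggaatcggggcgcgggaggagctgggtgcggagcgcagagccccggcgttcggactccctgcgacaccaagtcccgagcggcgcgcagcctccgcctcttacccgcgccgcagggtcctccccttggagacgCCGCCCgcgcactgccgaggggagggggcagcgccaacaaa
The Col8a1 window holds 4 GGGCGG matches, and the Col1a2 window holds 2 GGGCGG and 2 CCAAT matches. The Col3a1 window holds 1 TATAAA match. Col4a1 and Col4a2 are transcribed away from each other, and their windows share 78 bases.

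The deposited values are normalised counts per gene, and steps in the lowest values point to depths of 23.8 to 27.9 M reads per library. Mapk14 had 43.8, 45.5 and 40.3 in p38α KO libraries, 54.7, 37.0 and 42.7 in p38α/γ KO libraries, and 143, 149 and 157 in control libraries. Mapk12 had 96.5, 103 and 105 in p38α KO libraries, 31.2, 35.5 and 32.8 in p38α/γ KO libraries, and 140, 138 and 152 in control libraries. Both targeted genes followed the labels, and Mapk12 was also lower in the p38α KO (log2 change −0.49, limma, Benjamini-Hochberg adjusted p = 0.00601). The p38α KO libraries stood furthest apart from each other: the lowest correlation with the own group was 0.961 for p38α KO libraries 1 and 3, while the other 7 libraries had 0.976 to 0.992. The comparisons of the chains were also made with each library left out in turn, p38α KO library 1 among them.

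Levels of different genes were set side by side per kilobase of the principal transcript. Averaged over the 9 libraries, Col1a2 had the highest level with 66.5 normalised counts per kilobase, followed by Col3a1 with 48.9 and Col1a1 with 45.7, the chains of types I and III that make up most collagen fibres of muscle. Col4a1 and Col4a2, the ubiquitous basement membrane pair, had 29.5 and 19.9 per kilobase. Col6a2, Col6a1 and Col6a3, the chains of the beaded filaments that anchor the basement membrane, had 20.3, 18.1 and 6.52 per kilobase. The other chains of the set had 7.34 per kilobase or less, down to 0.121 for Col4a3. Col4a3, Col9a1 and Col26a1 were near the bottom of the range in all groups, with 17, 5 and 10 inferred reads in their lowest library.

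**Figure D1:**
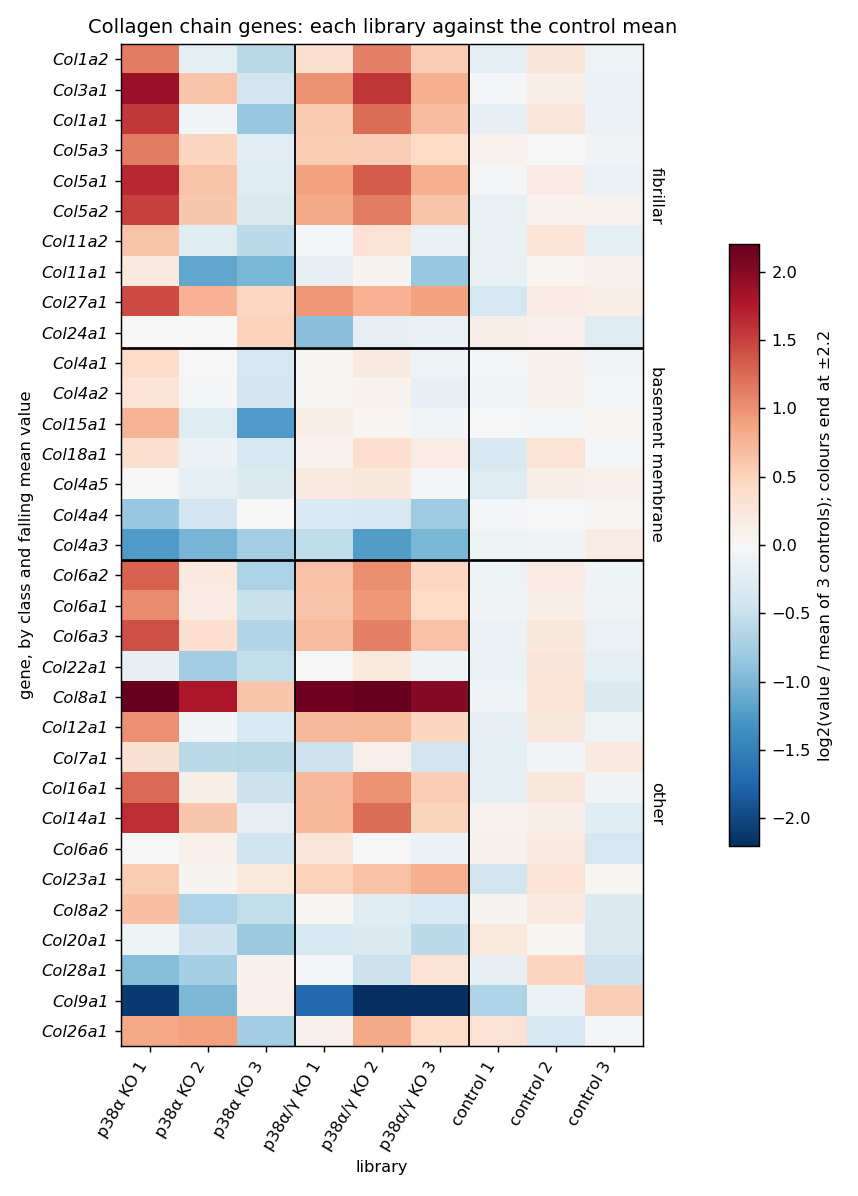
Each cell gives the log2 ratio of a gene's value in a library (columns, by group) to the mean of the 3 control libraries, with genes (rows) ordered by class and falling mean value. Red is above the control mean and blue below it. The p38α KO libraries run from mostly red in library 1 to mostly blue in library 3, and the p38α/γ KO libraries are red for most fibrillar chains and pale for Col4a1 and Col4a2.

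The 3 p38α KO libraries spread widely over the collagen genes. Library 1 was highest of its group and library 3 lowest in 22 of 33 chains (66.7%), against 29.8% of all 13137 genes tested. This order held for 8 of 10 fibrillar, 5 of 7 basement membrane and 9 of 16 other chains. Relative to the control mean, the median fibrillar chain stood at 2.44 in library 1, 1.20 in library 2 and 0.775 in library 3. For basement membrane chains the medians were 1.24, 0.867 and 0.777, and for other chains 1.70, 1.06 and 0.718. The highest over the lowest value of a fibrillar chain had a median of 2.95 in the p38α KO, 1.51 in the p38α/γ KO and 1.29 in the control.

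Each comparison was fitted with limma to log2(value + 1) over all 9 libraries, for the genes that reached 1 in 3 or more of them. A gene was called when its p, adjusted after Benjamini and Hochberg, was below 0.05. Fold changes are on that scale and understate changes of low genes. Between the p38α/γ KO and the control, Col1a1, Col1a2 and Col3a1 were higher in every p38α/γ KO library than in any control library. Of all genes tested, 26.4% were. None of these chains was called over the 9 libraries. Called higher were Col8a1, Col27a1 and Col23a1, and called lower were Col9a1 and Col4a3. That makes 3 higher and 2 lower of 33 chains, while 11.2% of all genes tested were called higher and 14.4% lower. At an unadjusted p below 0.05, 6 chains were higher and 2 lower, where 20.1% of all genes tested were higher and 20.9% lower.

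Of the fibrillar chains, Col1a1 and Col1a2 build type I collagen, the bulk of tendon and of the connective tissue around fibres. Col1a1 (ENSMUSG00000001506, chr11:94936224-94953042, 51 exons) had 283, 444 and 303 in p38α/γ KO libraries and 167, 227 and 174 in control libraries. All p38α/γ KO values lay above all control values. The means were 343 ± 87.7 in the p38α/γ KO and 189 ± 33.1 in the control (SD, n = 3 each), with a log2 change of 0.84 (SE 0.476, adjusted p = 0.207). Col1a2 (ENSMUSG00000029661, chr6:4504814-4541544, 52 exons) had 354, 593 and 404 in p38α/γ KO libraries and 238, 336 and 256 in control libraries. Its groups did not overlap either, with a log2 change of 0.68 (SE 0.381, adjusted p = 0.201).

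Col3a1, the chain of type III collagen, which forms thin fibrils in the sheaths of muscle, had the largest fibrillar change on the log2 scale. Its values were 311, 466 and 269 in p38α/γ KO libraries and 153, 174 and 142 in control libraries, well apart, with a log2 change of 1.12 (SE 0.456, adjusted p = 0.0949). The gene (ENSMUSG00000026043, chr1:45311538-45349706, 51 exons) lies next to Col5a2 (chr1:45374321-45503282), another fibrillar gene on the opposite strand. Type V chains join type I fibrils and limit their width. Col5a1 had 49.1, 66.8 and 45.6 in p38α/γ KO libraries and 25.6, 29.96 and 23.9 in control libraries (log2 change 0.98, SE 0.373, adjusted p = 0.0776). Col5a3 had 50.8, 50.3 and 46.8 in p38α/γ KO libraries and 36.6, 34.5 and 32.7 in control libraries (log2 change 0.50, SE 0.259, adjusted p = 0.171). For both type V genes every p38α/γ KO value exceeded every control value, and the same was true of Col5a2.

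Col27a1 (ENSMUSG00000045672, chr4:63214004-63334991), a low-level fibrillar chain best known from cartilage, rose in the p38α/γ KO. It had 2.92, 2.57 and 2.81 in p38α/γ KO libraries and 1.15, 1.72 and 1.67 in control libraries, 1.51-fold higher with adjusted p = 0.0444. The other low fibrillar chains showed no such separation: Col11a1, Col11a2 and Col24a1 had log2 changes of −0.25, 0.05 and −0.26, and their groups overlapped. Over the class, 7 of 10 fibrillar chains had all p38α/γ KO values above all control values, where 26.4% of all genes tested did, and none had all below. The median log2 change of the 10 chains was 0.64, beside 0.02 over all genes tested.

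**Figure D2:**
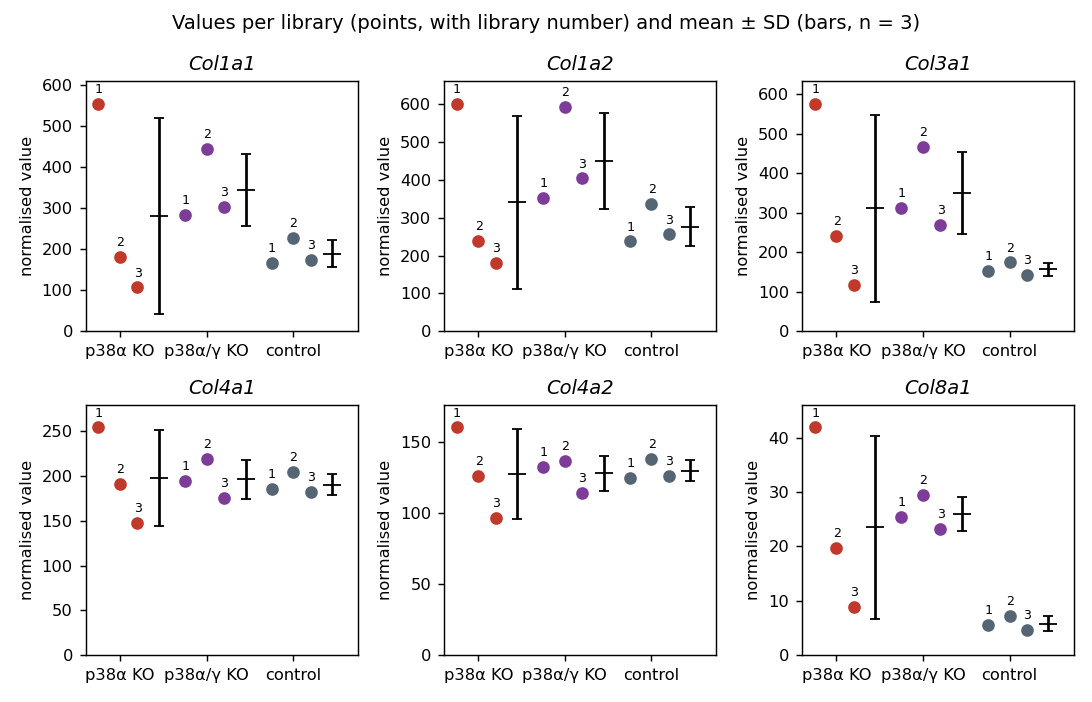
Normalised values (vertical axes, from 0) of 6 chains in the p38α KO, p38α/γ KO and control groups; points are libraries with their numbers, and bars beside them give the mean ± SD (n = 3). The p38α/γ KO points lie above the control points for Col1a1, Col1a2, Col3a1 and Col8a1 and among them for Col4a1 and Col4a2, and p38α KO library 1 is the highest point of its group in all 6 panels.

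The abundant basement membrane chains overlapped between the p38α/γ KO and the control. Col4a1 (ENSMUSG00000031502, chr8:11198423-11312826, 52 exons) had 195, 219 and 175 in p38α/γ KO libraries and 185, 204 and 182 in control libraries. Col4a2, its partner in the type IV network, had 133, 137 and 114 in p38α/γ KO libraries and 125, 138 and 126 in control libraries. Neither gene separated the groups, with log2 changes of 0.04 (SE 0.172) and −0.02 (SE 0.16) and adjusted p of 0.879 and 0.922. The starts of the 2 genes overlap. Per kilobase, Col4a1 was 1.497 ± 0.066 times Col4a2 in the p38α/γ KO and 1.43 ± 0.0246 times in the control (SD, n = 3 each).

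The multiplexins Col15a1 and Col18a1, which link basement membranes to the matrix, overlapped too. Col15a1 had 38.8, 36.2 and 33.7 in p38α/γ KO libraries and 34.8, 34.4 and 36.1 in control libraries. Col18a1, which overlaps Slc19a1 on the other strand, had 16.2, 20.03 and 17.2 in p38α/γ KO libraries and 11.97, 19.2 and 14.8 in control libraries. Neither passed the test, at adjusted p of 0.939 and 0.413, and Col4a5 on the X chromosome had 3.17, 3.30 and 2.68 in p38α/γ KO libraries against 2.29, 3.02 and 3.01 in control libraries.

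Col4a3, a type IV chain best known from the kidney filter, fell. It had 1.03, 0.646 and 0.758 in p38α/γ KO libraries and 1.40, 1.44 and 1.71 in control libraries, 1.39-fold lower on the log2(value + 1) scale with adjusted p = 0.0345. All p38α/γ KO values lay below all control values. The neighbouring head-to-head gene Col4a4 had 2.26, 2.22 and 1.66 in p38α/γ KO libraries and 2.77, 2.86 and 2.88 in control libraries, also without overlap, and did not pass (adjusted p = 0.136). No basement membrane chain had all p38α/γ KO values above the controls, where 26.4% of all genes tested did. All values lay below in 2 of the 7 chains, where 28.6% of all genes did. None was called higher, where 11.2% of all genes were. None was higher at an unadjusted p below 0.05 either, where 20.1% of all genes were. The class had a median log2 change of 0.04.

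Among the other chains, Col8a1 changed most on the log2(value + 1) scale. With no pseudocount its log2 change in the p38α/γ KO was 2.19, beside −2.27 for Col9a1, a chain with very few reads. This short-chain collagen forms hexagonal lattices and is known from vessel walls and the cornea. Col8a1 (ENSMUSG00000068196, chr16:57624258-57754737, 4 exons) had 25.4, 29.4 and 23.1 in p38α/γ KO libraries and 5.45, 7.21 and 4.66 in control libraries. The groups lay far apart, and the gene was 4.01-fold higher in the p38α/γ KO (log2 change 2.004, SE 0.416, adjusted p = 0.0117). Its usual partner Col8a2 had 3.80, 3.09 and 2.93 in p38α/γ KO libraries and 3.87, 4.29 and 2.97 in control libraries, which overlapped. Per kilobase, Col8a1 stood at 6.81 ± 1.204 times Col8a2 in the p38α/γ KO and at 1.32 ± 0.117 times in the control (SD, n = 3 each).

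The type VI chains kept together. Col6a1 had 87.7, 111 and 77.1 in p38α/γ KO libraries and 53.7, 63.1 and 54.1 in control libraries (log2 change 0.67, SE 0.303, adjusted p = 0.127). Col6a2 had 92.1, 120 and 81.4 in p38α/γ KO libraries and 54.8, 67.0 and 55.2 in control libraries (0.71, SE 0.386, adjusted p = 0.192). Col6a3 had 66.3, 87.8 and 64.0 in p38α/γ KO libraries and 37.1, 48.3 and 36.7 in control libraries (0.82, SE 0.398, adjusted p = 0.149). All 3 were above the controls in every library without passing the test. Per kilobase, Col6a1 was 0.905 ± 0.0168 times Col6a2 in the p38α/γ KO and 0.931 ± 0.0212 times in the control (SD, n = 3 each). Col6a6, another chain of this type, overlapped between the groups.

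Col23a1, a chain that spans the cell membrane, rose: it had 4.01, 4.42 and 4.85 in p38α/γ KO libraries and 2.13, 3.46 and 2.88 in control libraries, 1.43-fold higher with adjusted p = 0.041. Of the chains that sit on fibril surfaces, Col12a1, Col14a1 and Col16a1 were above the controls in every p38α/γ KO library, with log2 changes of 0.61, 0.74 and 0.70. Col22a1, known from the muscle-tendon junction, had 28.1, 33.1 and 26.8 in p38α/γ KO libraries and 25.6, 34.6 and 24.6 in control libraries, overlapping throughout. Col9a1, a surface chain of cartilage fibrils, fell to 0.508, 0.192 and 0.348 in p38α/γ KO libraries, against 1.03, 1.52 and 2.41 in control libraries (log2 change −0.95, SE 0.268, adjusted p = 0.031), at very few reads per library. Of the 16 other chains, 8 lay above the controls in every library, where 26.4% of all genes tested did, and 1 below, where 28.6% did, and the median log2 change was 0.36.

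The number of chains called depended on which libraries set the spread. Fitted to the 6 libraries of this comparison alone, 15 of 32 chains tested were called higher and 2 lower, where 19.9% of all genes tested in that fit were called higher and 22.8% lower. These were the 7 fibrillar chains Col1a1, Col1a2, Col3a1, Col5a1, Col5a2, Col5a3 and Col27a1, and 8 others, namely Col6a1, Col6a2, Col6a3, Col8a1, Col12a1, Col14a1, Col16a1 and Col23a1. The same 15 were called higher with p38α KO library 1 left out of the joint fit, where 19.3% of all genes were. Col4a3 and Col9a1 were lower in both, with 21.8% of all genes lower without p38α KO library 1. In the 6-library fit, adjusted p was 0.00547 for Col1a1, 0.0195 for Col1a2 and 0.00175 for Col3a1, and over all 21 alternatives it went from 0.00547 to 0.447, from 0.0143 to 0.476 and from 0.00175 to 0.271 for these genes. Without p38α KO library 3, 10 chains were called higher, where 14.8% of all genes were.

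Replicate numbers paired p38α/γ KO and control libraries weakly, and with the number as a block, 1 chain was called higher and 1 lower, where 7.83% and 9.83% of all genes were. Col8a1 stayed higher (adjusted p = 0.0165) and Col9a1 lower (0.032), while Col4a3 (0.0607), Col27a1 (0.0755) and Col23a1 (0.0743) were not called. The call of Col8a1 in the 9-library fit was lost only without p38α/γ KO library 2 (adjusted p = 0.0526) and otherwise held down to 9.23e-05 over the 21 alternatives. Those of Col4a3, Col27a1, Col23a1 and Col9a1 were lost in 7, 10, 7 and 4 alternatives, with adjusted p up to 0.125, 0.146, 0.141 and 0.11. Each of these 4 was lost without p38α/γ KO library 2, without p38α/γ KO library 3 and without control library 3. Control library 1 also ended the calls of Col4a3, Col27a1 and Col23a1, control library 2 those of Col4a3, Col27a1 and Col9a1, p38α KO library 2 those of Col4a3 and Col27a1, and p38α/γ KO library 1 those of Col27a1 and Col23a1. Quantile normalisation ended those of Col27a1 and Col23a1, and a pseudocount of 5 that of Col27a1.

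**Figure D3:**
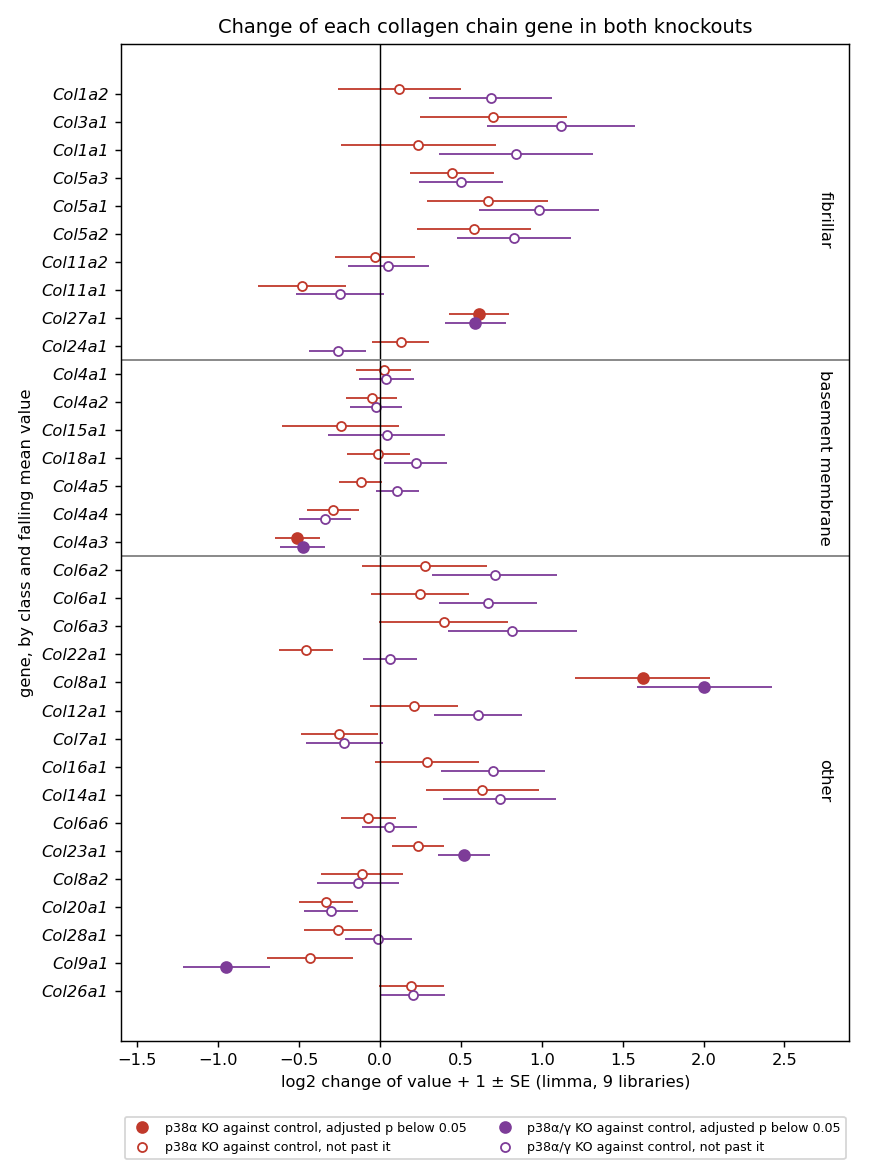
Points give the log2 change of value + 1 (horizontal axis) of each chain in the p38α KO and the p38α/γ KO against the control, with bars of ± 1 SE from limma over 9 libraries, and filled points are past an adjusted p of 0.05. Col8a1 stands apart at 1.62 for the p38α KO and 2.004 for the p38α/γ KO, the main fibrillar chains lie right of 0, and Col4a1 and Col4a2 lie near 0.

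In the p38α KO, 2 chains rose against the control and 1 fell, of 33, while 7.32% of all genes tested were called higher and 10.4% lower. Col8a1 had 41.9, 19.8 and 8.84 in p38α KO libraries and 5.45, 7.21 and 4.66 in control libraries. It was above every control in all 3 libraries, though by little in library 3, and 3.08-fold higher in the fit (log2 change 1.62, SE 0.416, adjusted p = 0.0272). Col27a1 had 4.08, 2.57 and 2.08 in p38α KO libraries and 1.15, 1.72 and 1.67 in control libraries, 1.53-fold higher with adjusted p = 0.0491. Col4a3 had 0.641, 0.748 and 0.907 in p38α KO libraries and 1.40, 1.44 and 1.71 in control libraries, 1.43-fold lower with adjusted p = 0.0339. These 3 are also the only chains whose p38α KO and control values did not overlap, where 17.6% of all genes tested lay above and 21.1% below. The p38α KO and p38α/γ KO comparisons share the control libraries.

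The p38α KO calls changed with the libraries in the fit. The fit to its own 6 libraries called 0 chains, with 3.96% of all genes higher and 6.85% lower, although 2 chains were higher and 2 lower there at an unadjusted p below 0.05, where 13.6% and 16.6% of all genes were. There Col8a1 had adjusted p = 0.0679, and over the 21 alternatives 0.000281 to 0.0959. Its call also ended without p38α KO library 2 and without each control library. The call of Col27a1 ended without any library other than p38α KO library 3, with a pseudocount of 5, with quantile normalisation or with the replicate block, and its adjusted p went from 0.00762 to 0.159. That of Col4a3 ended without p38α KO library 1 or 2, p38α/γ KO library 3 or any control, and with the replicate block, with 0.00345 to 0.123.

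The remaining chains in the p38α KO followed the spread of its libraries. Col1a1 had 554, 182 and 107 in p38α KO libraries and 167, 227 and 174 in control libraries. Col1a2 had 602, 239 and 182 in p38α KO libraries and 238, 336 and 256 in control libraries, and Col3a1 had 576, 241 and 117 in p38α KO libraries and 153, 174 and 142 in control libraries. Library 1 was far above the controls and library 3 below them for all 3 genes, whose adjusted p were 0.758, 0.853 and 0.305. Col4a1 had 254, 192 and 148 in p38α KO libraries and 185, 204 and 182 in control libraries, the same order in a narrower range. The median log2 change was 0.34 for fibrillar, −0.12 for basement membrane and 0.20 for other chains, beside 0.01 over all genes tested.

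Without p38α KO library 1, those medians were 0.11, −0.19 and −0.15. In that fit Col8a1 was the 1 chain called higher (log2 change 1.095), where 7.21% of all genes were. Col11a1, Col15a1 and Col22a1 were called lower, where 10.9% were, with log2 changes of −0.82, −0.73 and −0.60. Without p38α KO library 3, the medians were 0.76 for fibrillar, 0.13 for basement membrane and 0.33 for other chains. There 8 chains were called higher, where 11.4% of all genes were: Col3a1, Col5a1, Col5a2, Col5a3, Col6a3, Col8a1, Col14a1 and Col27a1.

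The 2 knockouts were also compared with each other, which asks what loss of p38γ adds. None of the 33 chains was called by limma, while 0.122% of all genes tested were higher and 0.32% lower in the p38α KO. At an unadjusted p below 0.05, 1 chain was higher and 1 lower, where 5.65% and 6.33% of all genes were. They were Col24a1, whose values of 2.32, 2.37 and 3.33 in p38α KO libraries lay above the 1.24, 2.08 and 2.11 of p38α/γ KO libraries, and Col22a1, whose 24.95, 16.7 and 19.5 in p38α KO libraries lay below the 28.1, 33.1 and 26.8 of p38α/γ KO libraries. Adjusted p were 0.416 and 0.261, and these 2 were the only chains without overlap, where 6.73% of all genes lay above and 7.58% below. The fit to the 6 knockout libraries called 0 chains as well, with 0.054% of all genes higher and 0.116% lower. So did the fit with the replicate block, with 0.0609% and 0.183%. The fit with array weights called 6 lower, where 11.9% of all genes were.

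Set against the p38α/γ KO, the p38α KO had a median log2 change of −0.24 for fibrillar, −0.04 for basement membrane and −0.27 for other chains, and −0.01 over all genes. Leaving out p38α KO library 1 called 11 chains lower, where 6.54% of all genes were: Col1a1, Col1a2, Col3a1, Col5a1, Col6a1, Col6a2, Col6a3, Col12a1, Col15a1, Col16a1 and Col22a1. In that fit Col1a1 had a log2 change of −1.27 with adjusted p = 0.0144, and over all alternatives its adjusted p went up to 0.97. Without p38α KO library 3, the medians between the knockouts turned to 0.14 for fibrillar and 0.0599 for other chains and stayed at −0.09 for basement membrane chains.

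The balance of interstitial to basement membrane chains is given per library by the summed values of Col1a1, Col1a2 and Col3a1 over those of Col4a1 and Col4a2, with no correction for length. The first sum was 1731, 661 and 406 in p38α KO libraries, 948, 1503 and 976 in p38α/γ KO libraries and 558, 737 and 571 in control libraries. The second was 415, 317 and 245 in p38α KO libraries, 328, 356 and 290 in p38α/γ KO libraries and 310, 342 and 308 in control libraries. Their ratio was 4.18, 2.08 and 1.66 in p38α KO libraries, 2.89, 4.22 and 3.37 in p38α/γ KO libraries and 1.797, 2.15 and 1.85 in control libraries. All p38α/γ KO ratios exceeded all control ratios, whereas only p38α KO library 1 did so in its group. All 33 chains together made up 0.337%, 0.147% and 0.0951% of the values of p38α KO libraries, 0.198%, 0.276% and 0.185% of p38α/γ KO libraries and 0.110%, 0.145% and 0.114% of control libraries.

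**Figure D4:**
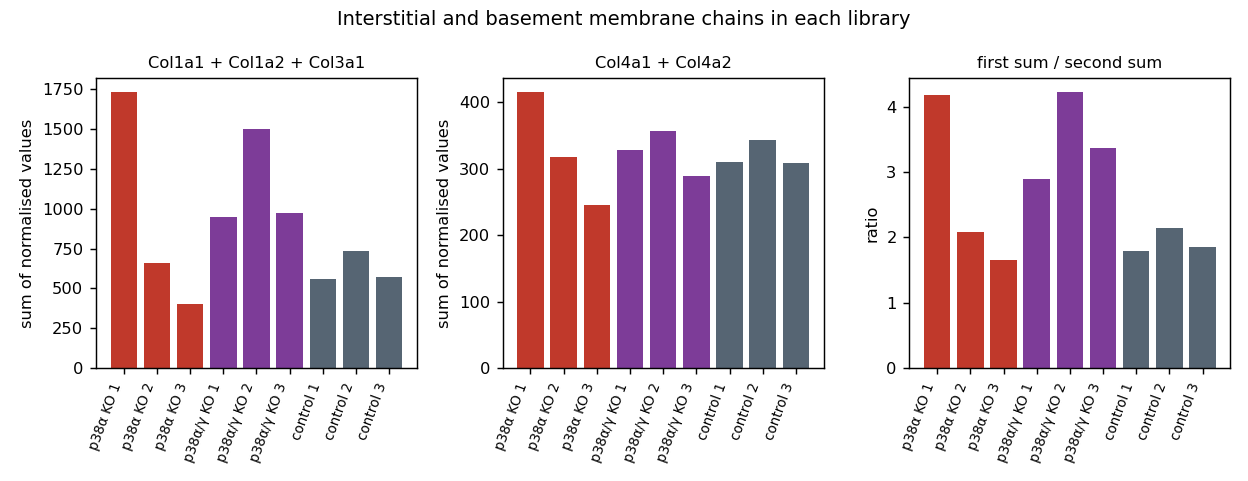
Bars give, for each library (horizontal axis), the summed normalised values of Col1a1, Col1a2 and Col3a1, those of Col4a1 and Col4a2, and the ratio of the first sum to the second; colours are the groups. The ratio is 2.89 to 4.22 in p38α/γ KO libraries and 1.797 to 2.15 in control libraries, and p38α KO libraries reach from 1.66 to 4.18.

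Genes that make and finish collagen were read beside the chains. The p38α KO calls of these partner lists were made over 9 libraries, and fitted to the 6 libraries of that comparison alone, 0 genes of any of these lists were called. Of all genes tested over 9 libraries, 11.2% were called higher and 14.4% lower in the p38α/γ KO, and 7.32% and 10.4% in the p38α KO. Of 19 genes for synthesis and folding, 5 rose and 1 fell in the p38α/γ KO. Fkbp10 and Ppib, which help the chains fold, rose 1.83-fold and 1.54-fold against the control, both with adjusted p = 0.0211. P4ha1, a prolyl hydroxylase subunit, fell 1.31-fold in the p38α/γ KO and 1.29-fold in the p38α KO (adjusted p = 0.0265 and 0.0401), the only one of this list called in the p38α KO. Serpinh1, the collagen chaperone, had 120, 54.6 and 28.5 in p38α KO libraries, 67.5, 57.7 and 55.5 in p38α/γ KO libraries and 48.1, 63.8 and 56.8 in control libraries, with the spread between p38α KO libraries seen in the fibrillar chains.

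Of 10 genes tested for processing and cross-linking, Adamts14, which trims the chain end, and Loxl1, a lysyl oxidase, rose in the p38α/γ KO. Adamts14 rose 1.83-fold and Loxl1 2.37-fold (adjusted p = 0.00704 and 0.0431), where 11.2% of all genes tested were called higher. None was called in the p38α KO. There 4 were higher at an unadjusted p below 0.05, against 15.9% of all genes tested. Of 9 breakdown genes, 6 rose in the p38α/γ KO, among them the proteases Mmp2 (2.38-fold, adjusted p = 0.0184) and Mmp14 (2.21-fold, 0.0122) and the inhibitor Timp1 (3.55-fold, 0.0242). Mmp14 (1.86-fold, adjusted p = 0.0329) and Timp1 (3.32-fold, 0.0352) also rose in the p38α KO. The median log2 change of the 9 genes was 0.96 in the p38α/γ KO and 0.29 in the p38α KO.

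Among 9 proteoglycans that bind fibrils, Dcn, Lum, Bgn and Podn rose in the p38α/γ KO, Dcn 1.36-fold, Lum 2.14-fold and Bgn 2.08-fold (adjusted p = 0.0264, 0.0324 and 0.0391). None was called in the p38α KO. There 1 was higher and 1 lower at an unadjusted p below 0.05, against 15.9% and 18.1% of all genes tested. Of 7 collagen receptors, Lair1, an inhibitory receptor of immune cells, rose in the p38α KO (1.83-fold, adjusted p = 0.018) and the p38α/γ KO (1.74-fold, 0.0203). The 10 basement membrane partners, laminins and their like, held no call in the p38α/γ KO. There 1 was lower at an unadjusted p below 0.05, where 20.9% of all genes tested were. Lamb2 fell 1.21-fold in the p38α KO (adjusted p = 0.0487). Of 17 TGF-beta pathway genes, Ctgf, a matrix-associated target, rose 1.91-fold in the p38α/γ KO (adjusted p = 0.0227) and Smad4 fell 1.53-fold there and 1.58-fold in the p38α KO (0.0309 and 0.0296), while Tgfbr2 rose 1.29-fold in the p38α KO (0.0452). Of the 81 genes of these lists together, 19 were called higher and 2 lower in the p38α/γ KO, where 11.2% and 14.4% of all genes were. In the p38α KO, 4 were higher and 3 lower, where 7.32% and 10.4% of all genes were. None of the 81 was called between the knockouts. There 10 were lower in the p38α KO at an unadjusted p below 0.05, against 6.33% of all genes tested.

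Markers of the cells in whole muscle moved with the chains in part, and their part in the results was not tested. The summed values of 12 fibroblast and fibro-adipogenic progenitor markers were 1753, 1455 and 1397 in p38α KO libraries, 1678, 2238 and 1774 in p38α/γ KO libraries and 1189, 1524 and 1192 in control libraries. In the p38α/γ KO, 6 of the 12 rose and 1 fell, where 11.2% of all genes tested were called higher and 14.4% lower. In the p38α KO, 1 rose and 1 fell, where 7.32% and 10.4% of all genes did. The 8 tenocyte markers summed to 518, 235 and 231 in p38α KO libraries, 373, 539 and 377 in p38α/γ KO libraries and 209, 272 and 225 in control libraries. Both lists were highest in library 1 of the p38α KO and library 2 of the p38α/γ KO. Those libraries had the highest fibrillar sums of their groups. This order was not particular to these lists. The macrophage markers (214 and 212) and the basement membrane partners (667 and 651) were highest in the same libraries. Neither the fibroblast nor the tenocyte sums of the p38α/γ KO overlapped those of the control. Of the 8 tenocyte markers, 2 were called higher in the p38α/γ KO and 0 in the p38α KO.

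The 10 macrophage markers summed to 214, 162 and 91.0 in p38α KO libraries and 146, 212 and 107 in p38α/γ KO libraries. Control libraries had 54.8, 70.9 and 48.8. Called higher were 7 for the p38α KO and 9 for the p38α/γ KO, where 7.32% and 11.2% of all genes tested were. The 9 endothelial markers were at 385 to 433 in the p38α KO, 364 to 403 in the p38α/γ KO and 390 to 420 in the control. Macrophage sums of both knockouts lay above all control sums, whereas endothelial sums overlapped. Of the endothelial markers, 1 was called higher and 1 lower in the p38α/γ KO, where 11.2% and 14.4% of all genes tested were. In the p38α KO 0 were called, where 7.32% were higher and 10.4% lower. The 9 smooth muscle and pericyte markers were at 543 to 569 in the p38α KO, 528 to 577 in the p38α/γ KO and 609 to 752 in the control, with 2 called lower in each knockout. The 10 muscle fibre markers, which define the labelled tissue, summed to 95271 to 138438 in p38α KO libraries, 115747 to 121025 in p38α/γ KO libraries and 155360 to 169668 in control libraries. Their sum was lowest in p38α KO library 1, which had the highest fibrillar sum of all libraries. Of these 10 markers, 1 was called lower and 0 higher in each knockout. Fitted to its own 6 libraries, the p38α KO comparison called 0 of them, where 6.85% of all genes were lower. The 6-library fit of the p38α/γ KO called 2 higher and 4 lower, where 19.9% and 22.8% of all genes were. Of the Schwann cell (7 genes), adipocyte (6), satellite cell (4) and erythroid (5) markers, Lep was called lower and Myf5 higher in the p38α KO, and Spry1 was called higher in the p38α/γ KO. Neither Lep nor Myf5 was called when the p38α KO comparison was fitted to its own 6 libraries. No marker of any list was below 1 in all libraries.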

How the data were processed

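Polyadenylated RNA of 9 gastrocnemius libraries was prepared with a directional kit, selected at an RIN above 8 and read as single ends, per the labels' protocols. The submitters' processing notes name CASAVA 1.8, cutadapt, RSEM 1.3.1, limma and GRCm38, with no role or order. The deposited table holds a normalised signal per gene and library that the authors call normalised counts. How it was scaled and filtered, and whether the counting used strand, is not given in the sources used here. Every value steps as a whole number of reads plus 0.5 would, within 0.001 reads, and depths of 23.8 to 27.9 M reads were inferred from these steps. The values were not tested as counts, since no file states that they are reads.

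A gene entered the tests when 3 or more libraries reached 1 (13137 of 13179 genes). Values were put on the log2(value + 1) scale and fitted by limma 3.58.1 (R 4.3.3), with the empirical Bayes step and a trend, and with Benjamini-Hochberg adjustment over all genes of a comparison. The procedure was tested on simulated data. Python 3.11.15 and matplotlib 3.10.9 were used for summaries and figures. Alternatives covered filter, pseudocount, scaling (TMM factors, median of ratios, quantiles), spread, pairing, threshold, class membership and leaving out each library. The fit with no pseudocount was added after seeing the data. Array weights used the gene-by-gene method because the other did not converge.

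The p38α/γ KO and control libraries of the same replicate number deviated together, with correlations of 0.11, 0.12 and 0.15 over genes, so the blocked values are given for that comparison. In the p38α KO against the control they were −0.09, −0.09 and 0.10, and between the knockouts −0.33, −0.23 and 0.09.

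The chains, their classes and the lists of partner and marker genes were chosen with earlier results of these data known. Values were printed for every chain called, for the 5 most abundant of each class and for up to 3 called genes per partner list, and some others were named after their values were seen. Coordinates and transcripts are those of GENCODE M21 on GRCm38, and Col4a1 with Col4a2 and Col18a1 with Slc19a1 overlap.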

Additional observations from a re-analysis of the deposited data

How the results depend on the processing

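Over the alternatives run, none of the 8 calls of chains in the 9-library fit changed direction. Chains without a call there could: in the p38α KO, Col6a3 was called higher (log2 change 0.90) without p38α KO library 3 and had −0.12 without library 1, and Col15a1, called lower without library 1 (−0.73), had 0.23 without library 3. In the p38α KO against the control (2 chains higher, 1 lower), 1 was higher with a minimum value of 5, a pseudocount of 5, quantile normalisation or the replicate block, 0 with its own 6 libraries and 6 with array weights. Lower were 0 with the minimum of 5, the block or the 6 libraries, 5 with array weights and 2 at an adjusted p below 0.1. Of all genes, array weights called 18.5% higher and 20.4% lower there, and the threshold of 0.1 called 14.9% lower. The minimum of 5 called 7.47% higher and 13.6% lower, the block 4.83% and 7.01%, and the 6 libraries 3.96% and 6.85%. A pseudocount of 5 called 6.54% higher and quantile normalisation 6.78%. Leaving out each library gave 0 to 8 chains higher and 0 to 3 lower, where 2.11% to 11.4% and 4.01% to 13.4% of all genes were. In the p38α/γ KO against the control (3 higher, 2 lower), 1 was higher with the minimum of 5, quantile normalisation or the replicate block. Of all genes, 11.3%, 10.3% and 7.83% were higher there. Array weights or the 6 libraries alone called 15 higher, against 24.1% and 19.9% of all genes. At an adjusted p below 0.1, 5 were higher, against 18.1%. Lower were 0 with the minimum of 5 and 1 with the block, and leaving out a library gave 0 to 15 higher and 0 to 2 lower. Between the knockouts, array weights called 6 chains lower, where 11.9% of all genes were. Leaving out a library gave 0 to 11 lower, where 0.046% to 6.54% of all genes were, and 0 higher, where 0.0383% to 7.77% were.

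The p38α/γ KO median log2 change of fibrillar chains was 0.83 with the minimum of 5. That of other chains was 0.68 with the minimum of 5, 0.17 with a pseudocount of 5, 0.56 with none, 0.52 with the 6 libraries and 0.21 when Col15a1 and Col18a1 counted as other. Leaving out a library gave −0.63 to 0.14 for fibrillar chains between the knockouts and 0.11 to 0.76 in the p38α KO, 0.32 to 0.52 for other chains in the p38α/γ KO, −0.22 to 0.13 for basement membrane and −0.15 to 0.33 for other chains in the p38α KO, and −0.55 to 0.0599 for other chains between the knockouts. The cause was not tested, except that filters on higher values drop the low chains. Depth limits Col4a3, Col9a1 and Col26a1, which had few inferred reads. Col28a1 and Col27a1, the latter called in both knockouts, were not far above, with 22 and 28 inferred reads in their lowest library. With 3 libraries a group, and 1 group of wide spread in the joint fit, a chain that was not called is not shown to be equal between groups.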
